A study of Mus musculus with 5 samples.

Results

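Association neurons of the primary somatosensory area (S1) were compared between layer 6b (L6b) and layer 2/3 (L2/3). Association neurons here are cortical neurons whose axons run from S1 to the primary motor area (M1) of the same hemisphere. The comparison took the L6b array minus the L2/3 array, 2 of the 5 arrays of the series, after the median signal of each array was subtracted. Of 19938 genes with a probe set of their own, 11916 reached the array median in L6b, in L2/3, or in both and were kept. All neurons came from mice of the strain ICR, with cortex collected at postnatal day 24 and no genetic deletion or drug named in the labels. Green RetroBeads, fluorescent beads that axon endings take up and carry back to the cell body, had been injected into M1 3 days before collection. Before birth, L2/3 neurons of these animals had been electroporated with pCAGGS-tdTomato, so that red axons showed where to inject. Labeled cells were cut out by laser from frozen sections, about 1000 per group, and their RNA was amplified before it was put on the array. The other 3 arrays, of association neurons in layer 5 (L5) and of callosal neurons in L2/3 and L5, received the same treatment, with beads placed in the opposite S1 for callosal neurons. They are given below as further levels of the same genes.

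Layer 6b is the thin band of neurons between layer 6a and the white matter. It holds neurons that persist from the embryonic subplate (SP), a transient zone of the earliest born cortical neurons. L2/3 neurons are among the last born excitatory neurons of the cortex and are defined by their own set of transcription factors and calcium-binding proteins. Excitatory neurons of both layers release glutamate and send axons to other cortical areas.

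Only 1 array exists for each group, so the values below are sizes for these arrays, without a test or a replicate error. The sources used here do not give how many animals were pooled. Every level is a log2 signal minus the median of its own array, so that 0 is the array median, and every difference is L6b minus L2/3 on the same log2 scale. A difference of 1 is 2-fold and a difference of 2 is 4-fold. The medians subtracted were 5.71 in L2/3 and 5.8 in L6b. Deposited values have 2 decimals, and 1647 of the genes kept (13.8%) had an identical deposited value in both arrays and a difference of -0.09. Why so many values were tied was not tested, so a tie is not read here as a measured equality. Where a gene had 2 or more probe sets, their differences varied with a pooled SD of 0.76 around the mean of the gene (652 genes). That is the spread between probes of 1 pair of arrays and not a biological error. The cells were pooled before RNA was extracted, so a signal from fewer cells of a type and a signal of less RNA per cell cannot be told apart.

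The neurons from L6b had the signals of known SP genes, and the neurons from L2/3 had those of known upper-layer genes. *Cplx3*, *Ccn2* and *Kcnab1*, the 3 genes that mark L6b here, were all higher in L6b than in the other 4 arrays. The study picked *Kcnab1* as a candidate from these same arrays by its enrichment in L6b, so its higher signal comes with that choice. *Cplx3* encodes a complexin, a small protein that binds the vesicle fusion complex and controls transmitter release. Its signal was 5.22 in association L6b, -0.04 in association L2/3, 0.02 in association L5, -0.37 in callosal L2/3, and 0.39 in callosal L5. Only the L6b signal stood clear of the array median, and the difference between L6b and L2/3 was 5.26, a 38.3-fold higher signal. *Ccn2*, also called *Ctgf*, encodes a secreted matrix protein of the CCN family. Its signal was 4.63 in association L6b, against 1.07 in association L2/3, 1.01 in association L5, 1.04 in callosal L2/3, and 0.81 in callosal L5. The other 4 arrays lay close together, and L6b was 11.8-fold above L2/3. *Kcnab1* encodes Kvβ1, an auxiliary subunit of voltage-gated potassium channels of the Kv1 family. Its signal was 2.41 in association L6b, 0.07 in association L2/3, 0.11 in association L5, -0.44 in callosal L2/3, and -0.11 in callosal L5. It was thus near or below the median outside L6b, and the difference between L6b and L2/3 was 2.34, or 5.06-fold.

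The separation of L6b from L2/3 was the widest of the 10 pairs that the 5 arrays form. Of the 11916 genes, 1679 (14.1%) were at least 2-fold apart, whereas association and callosal neurons of L2/3 were that far apart in 1070 genes, or 9.09% of the genes kept for that pair. Most of the difference ran downward. At least 2-fold higher in L6b were 354 genes (2.97%), and at least 2-fold lower were 1325 genes (11.1%). At a 4-fold difference the counts were 108 higher (0.906%) and 338 lower (2.84%). The same direction was seen in other pairs with L6b, with 441 higher and 896 lower against association L5. The counts were 408 and 1062 against callosal L2/3, and 362 and 977 against callosal L5. Association L2/3 was also more often the higher side against callosal L2/3, in 633 genes against 437. Within 1.5-fold lay 8949 genes (75.1%), and the median difference of all genes was -0.09. Genes lower in L6b were often still above the array median there. The L6b signal lay below the median in 308 of the 1325 lower genes, and the L2/3 signal did so in 68 of the 354 higher genes. Such genes were kept only through the array in which they were higher, and the counts of the lists below include them. The direction of the excess held under other scalings of the arrays, although its size moved. Scaling to the 75th percentile gave 465 higher and 1051 lower genes, raised the median by 0.16, and took the share of higher genes among those 2-fold apart from 21.1% to 30.7%.

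**Figure D1:**
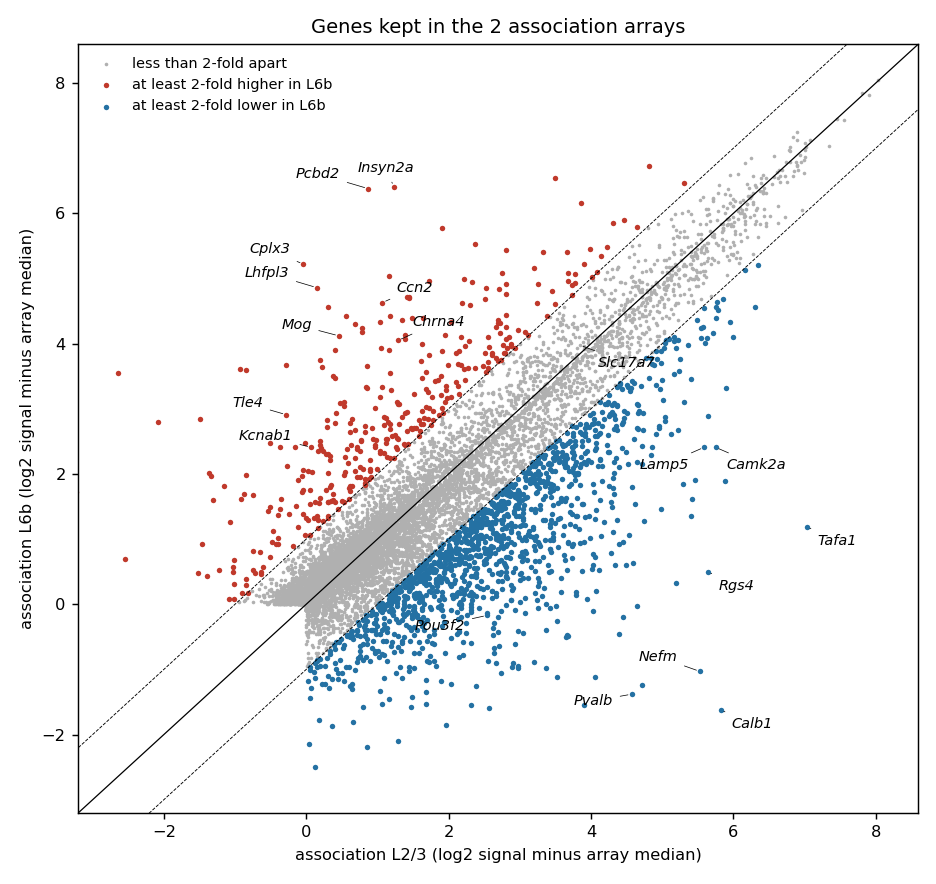
Log2 signal minus the array median in association L2/3 (horizontal axis) and association L6b (vertical axis) of the 11916 genes kept, 1 point per gene, with a solid line at equal signals and dashed lines at a 2-fold difference. The 1325 blue points of genes lower in L6b outnumber the 354 red points of genes higher in L6b, and *Slc17a7*, the vesicular glutamate transporter of excitatory neurons, lies near the solid line.

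Markers of cortical excitatory neurons were above the array median in both populations, but 4 of the 5 examined were at least 2-fold lower in L6b. *Slc17a7*, which encodes the vesicular glutamate transporter VGLUT1, had a signal of 3.98 in L6b and of 3.84 in L2/3. The remaining arrays ranged from 4.01 to 4.47, so the difference of 0.14 between L6b and L2/3 was smaller than the range among the 5 arrays. The other 4 markers, *Camk2a*, *Grin2b*, *Nrgn*, and *Slc30a3*, had differences of -3.34, -2.0, -1.87, and -1.24, with L6b signals from 1.13 to 2.41. Vesicular transporter and glutamine cycle genes as a list had 0 of 9 kept members higher and 1 lower, the zinc transporter gene *Slc30a3* (difference -1.24). That count is close to the share of all genes that were lower.

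Genes of SP and L6b were the second highest of the lists by their median. The list held 22 genes, of which 18 were kept, and 8 of the 18 were at least 2-fold higher in L6b, against 2.97% of all genes. None of the 18 was at least 2-fold lower, and the median difference was 0.90, against -0.09 over all genes. The 8 include *Kcnab1*, which the study had picked from these arrays. Besides the 3 markers, the higher members were *Moxd1*, *Hs3st4*, *Trh*, *Nr4a2*, and *Gabra5*. *Moxd1*, which encodes a monooxygenase related to dopamine beta-hydroxylase, had a signal of 1.70 in L6b and of -0.87 in L2/3. *Hs3st4*, whose enzyme adds sulfate groups to heparan sulfate, had 2.79 and 0.40. *Trh*, the gene of thyrotropin-releasing hormone, had 2.51 and 0.20. For these 3 genes the differences were 2.57, 2.39, and 2.31. *Moxd1*, like *Cplx3*, was below the median in L2/3 and was kept only through L6b. *Nr4a2*, also called *Nurr1*, encodes a nuclear receptor used as an SP marker, and its difference was 1.44, from a signal of 0.19 in L2/3 to 1.63 in L6b.

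Other genes of the SP list differed by less. *Nxph3*, which encodes a secreted neurexin ligand, stood just inside the 2-fold bound with a difference of 0.99, and its relative *Nxph4* had 0.41. *Tpd52l1*, *Lpar1*, *Ly6g6e*, and *Cdh18* had differences of 0.81, 0.76, 0.74, and 0.72. The signal of *Cdh18*, a cadherin gene, was already 4.27 in L2/3 and reached 4.99 in L6b. The lowest values were near 0, with -0.02 for *Rgs12* and -0.09 for *Ngfr*, the p75 neurotrophin receptor gene. *Inpp4b*, *Htr1d*, *Serpinb11*, and *Svil* lay below the array median in both arrays and were not kept. The SP genes were thus uneven, from 38.3-fold for *Cplx3* to no more than the median difference for *Ngfr*.

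**Figure D2:**
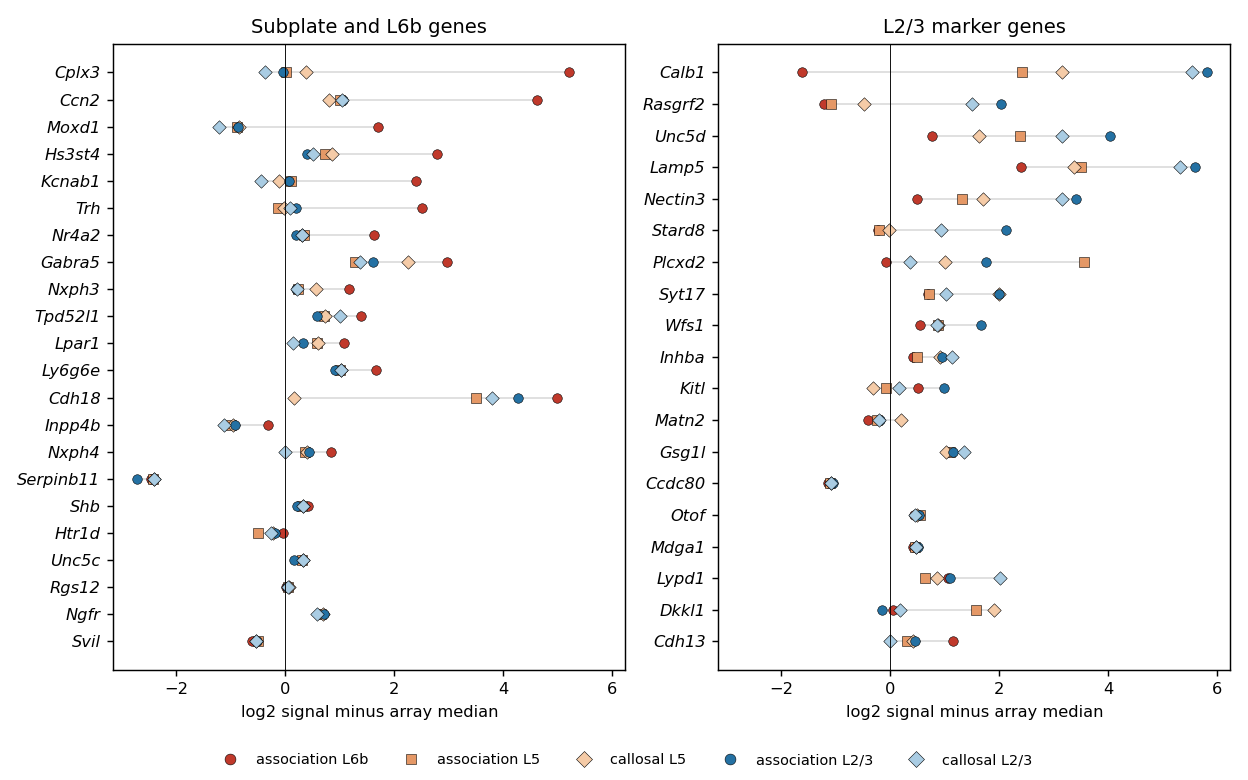
Log2 signal minus the array median (horizontal axis) in the 5 arrays for the 22 genes of the SP and L6b list and the 19 genes of the L2/3 list that have a probe set, kept or not, with 1 row per gene and a gray line from the lowest to the highest array. Red circles are association L6b and dark blue circles are association L2/3, and *Cplx3* (5.22 against -0.04) and *Calb1* (-1.62 against 5.82) head the lists.

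L2/3 genes showed the opposite picture. Of 20 genes listed, 17 were kept, 9 of these were at least 2-fold lower in L6b, against 11.1% of all genes, and 0 were higher. Of the 9, *Calb1*, *Rasgrf2*, *Stard8*, and *Plcxd2* were below the median in L6b and were kept only through L2/3. The median difference of the 17 was -1.13, and it was -0.44 with callosal L2/3 in place of association L2/3. *Calb1*, which encodes the calcium buffer calbindin, had a signal of -1.62 in association L6b, 5.82 in association L2/3, 2.42 in association L5, 5.55 in callosal L2/3, and 3.15 in callosal L5. The L2/3 arrays were highest, the L5 arrays intermediate, and L6b lowest, and the L2/3 signal was 174-fold above that of L6b. *Lamp5*, which encodes a membrane protein of the LAMP family, kept a signal of 2.41 in L6b but had 5.59 in L2/3, with 5.32 in callosal L2/3, 3.50 in association L5, and 3.37 in callosal L5. *Rasgrf2*, a guanine nucleotide exchange factor gene, had -1.22 in L6b and 2.04 in L2/3. *Unc5d*, a netrin receptor gene, had 0.77 and 4.03, and *Nectin3*, an adhesion gene, had 0.49 and 3.41. The differences of *Rasgrf2*, *Unc5d*, *Lamp5*, and *Nectin3* were -3.26, -3.26, -3.18, and -2.92. The other of the 2 probe sets of *Unc5d* had -0.1. *Stard8*, *Plcxd2*, *Syt17*, and *Wfs1* made up the 9, with differences from -2.36 to -1.13. For *Plcxd2*, *Syt17*, and *Wfs1*, callosal L2/3 had 0.37, 1.02, and 0.86, less than 2-fold above the L6b signals of -0.07, 0.69, and 0.54. *Plcxd2* was highest in association L5 (3.56), and *Syt17* had 2.00 in callosal L5, against 1.99 in association L2/3. *Otof*, *Mdga1*, and *Gsg1l*, also known from upper layers, each had -0.09, the value of a gene with the same deposited signal in both arrays, and *Cdh13* had 0.70.

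Transcription regulators divided in the same 2 directions. Of 15 kept deep-layer regulators, 5 were at least 2-fold higher in L6b and 1 was lower, against 2.97% and 11.1% of all genes, with a median of 0.43. *Tle4*, a Groucho family corepressor of corticothalamic neurons, had a signal of 2.91 in association L6b, -0.28 in association L2/3, 0.04 in association L5, -0.09 in callosal L2/3, and 0.07 in callosal L5. Its signal lay near the array median in every array but L6b, a 9.13-fold difference. Being below the median in association L2/3, *Tle4* was kept only through L6b. *Nfib* and *Nfia*, which encode factors of the nuclear factor I family, had differences of 1.60 and 1.40, and *Ldb2*, a LIM domain-binding cofactor gene, had 1.36. *Nr4a2* was the fifth. The other of the 2 probe sets of *Nfia* had 0.08, whereas that of *Nfib* had 2.16. *Etv1*, an ETS factor gene of L5 neurons, ran the other way with 0.35 in L6b and 2.75 in association L2/3, but the callosal L2/3 array had 0.31, so its difference of -2.40 rested on 1 of the 2 L2/3 arrays. *Tbr1*, the T-box factor of early born deep-layer neurons, had 3.60 in L6b and 4.24 in L2/3. *Bcl11b*, *Sox5*, and *Fezf2*, which specify deep-layer projection neurons, had differences of 0.08, -0.14, and 0.52.

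Upper-layer regulators had the lowest median of all lists, -1.25, with 7 of 13 kept genes at least 2-fold lower in L6b, against 11.1% of all genes, and 0 higher. *Pou3f2*, which encodes the POU factor BRN2, had a signal of -0.17 in association L6b, 2.54 in association L2/3, 1.71 in association L5, 2.76 in callosal L2/3, and 1.5 in callosal L5. Both L2/3 arrays were thus highest and L6b alone lay below the array median, with a difference of -2.71. The other of the 2 probe sets of *Pou3f2* had -0.09. *Rfx3* also had a difference of -2.71, from 3.12 to 0.41, but only 1.01 in callosal L2/3. *Mef2c*, *Lhx2*, *Tcf4*, *Cux1*, and *Lmo4* had -1.88, -1.77, -1.69, -1.47, and -1.25. *Cux2*, a homeobox gene that marks L2 to L4, had a difference of -0.53 from 1.48 to 0.95, and *Pou3f1* and *Pou3f3* had -0.18 and 0.14. The median of this list was between -1.25 and -1.01 under the other scalings and -0.60 when the callosal L2/3 array took the place of the association one.

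Genes of the layers between the compared ones set L6b apart less than the SP and L2/3 lists did. Among 15 kept L5 genes, 1 was at least 2-fold higher and 1 lower (6.67% each), against 2.97% and 11.1% of all genes. Their median of 0.01 changed sign with the scaling. *Pcp4*, which encodes a calmodulin-binding peptide, had 6.16 in L6b and 3.86 in L2/3, and its signals of 5.99 and 6.14 in the L5 arrays were close to that of L6b. *Rbp4*, a retinol-binding protein gene, had 0.53 in L6b and 2.23 in L2/3. Of 13 genes of L6a corticothalamic neurons, only 7 were kept. Their median difference was 0.44, against -0.09 over all genes, and 14.3% were at least 2-fold higher, against 2.97%. *Sla*, an adaptor protein gene, was the 1 at least 2-fold higher, with 0.44 in L6b and -1.40 in L2/3, and *Rprm* had a difference of 0.85. The 14.3% thus rests on *Sla*, which was kept only through L6b. *Ntsr1* and *Foxp2*, markers of L6a, lay below the array median in both arrays, with differences of 0.42 and 0.31.

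The genes farthest apart had varied functions. Among the 15 highest in L6b, after olfactory receptor genes, small RNAs, pseudogenes, and predicted genes were left out, the first was *Pcbd2*. It encodes a dehydratase that recycles tetrahydrobiopterin and had 6.38 in L6b, 0.87 in association L2/3, 2.30 in association L5, 2.31 in callosal L2/3, and 1.66 in callosal L5. *Cplx3* was next. *Insyn2a*, whose protein sits at the inhibitory postsynaptic density, had 6.41 in L6b, 1.23 in association L2/3, 1.21 in association L5, 1.84 in callosal L2/3, and 0.84 in callosal L5. L6b was far above all other arrays, and 36.3-fold above L2/3. *Lhfpl3*, a tetraspan gene also used as a marker of oligodendrocyte precursors, had 4.86 in L6b, 0.15 in association L2/3, and 0.70 to 0.86 in the other arrays. *Tnmd*, the tenomodulin gene of tendon, had a difference of 4.44, *Nxt1*, a cofactor of mRNA export, had 4.25, and *Gng12*, a G protein gamma subunit gene, had 3.87. *Mog*, *Me1*, *Ccn2*, and *Lgals1* followed with 3.66, 3.62, 3.56, and 3.50. *Taf1d* (4.54), *Mrtfb* (3.86), *Gnpnat1* (4.33), and *Cyb5d1* (3.45) completed the 15. In *Taf1d*, which has 9 probe sets, single probe sets ranged from -2.12 to 6.89, and in *Mrtfb* they ranged from -0.66 to 3.86, so the sign depended on the probe set. *Gnpnat1* rested on a low signal in association L2/3 (-1.49), since callosal L2/3 had 2.03 and callosal L5 had 3.72, against 2.84 in L6b. The signal of *Taf1d* in callosal L5, 4.19, was also above that in L6b, 3.61.

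Among the 15 lowest were genes of calcium binding, the cytoskeleton, secretion, and receptor signaling. *Calb1* led with -7.44. *Nefm*, which encodes the medium neurofilament chain, had -1.03 in L6b, 5.53 in association L2/3, 4.62 in association L5, 5.09 in callosal L2/3, and 5.41 in callosal L5. L6b was the only array below the median, and L2/3 was 94.4-fold above it. *Tafa1*, which encodes a secreted protein of the TAFA family, had 1.19 in L6b, 7.03 in association L2/3, 6.32 in association L5, 6.77 in callosal L2/3, and 6.18 in callosal L5. *Rgs4*, whose protein shortens the signal of G protein-coupled receptors, had 0.50 in L6b, 5.64 in association L2/3, 4.40 in association L5, 5.87 in callosal L2/3, and 5.21 in callosal L5. In both genes all 4 other arrays lay far above L6b, with differences of L6b minus association L2/3 of -5.84 and -5.14. Among the 4, *Rgs4* still ranged from 4.40 to 5.87. *Cacng3* encodes an auxiliary subunit of AMPA receptors. Its signal was -0.03 in L6b, 4.64 in association L2/3, 0.16 in association L5, 4.71 in callosal L2/3, and 4.70 in callosal L5, so the 2 deep association arrays were alike and both callosal arrays were not. *Pvalb*, *Tmem196*, *Tmem106b*, *Hacd2*, *Cdh12*, *Tnnc1*, and *Prmt8* had differences from -5.95 to -4.14. *Tmem196* and *Hacd2* each had 2 probe sets, and the other one had -2.14 and -0.55. *Dennd4a* (-5.96), *Uxt* (-5.44), and *Gkap1* (-4.15) were low in L6b, but their signals in callosal L2/3 were 0.72, -0.10, and -1.04, against 4.72, 3.90, and 3.65 in association L2/3. For these 3 genes the callosal L2/3 array thus lay closer to L6b than to association L2/3. The 2 probe sets of *Gkap1* differed in sign (-4.15 and 0.5), and the 9 of *Dennd4a* ranged from -5.96 to -0.44.

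**Figure D3:**
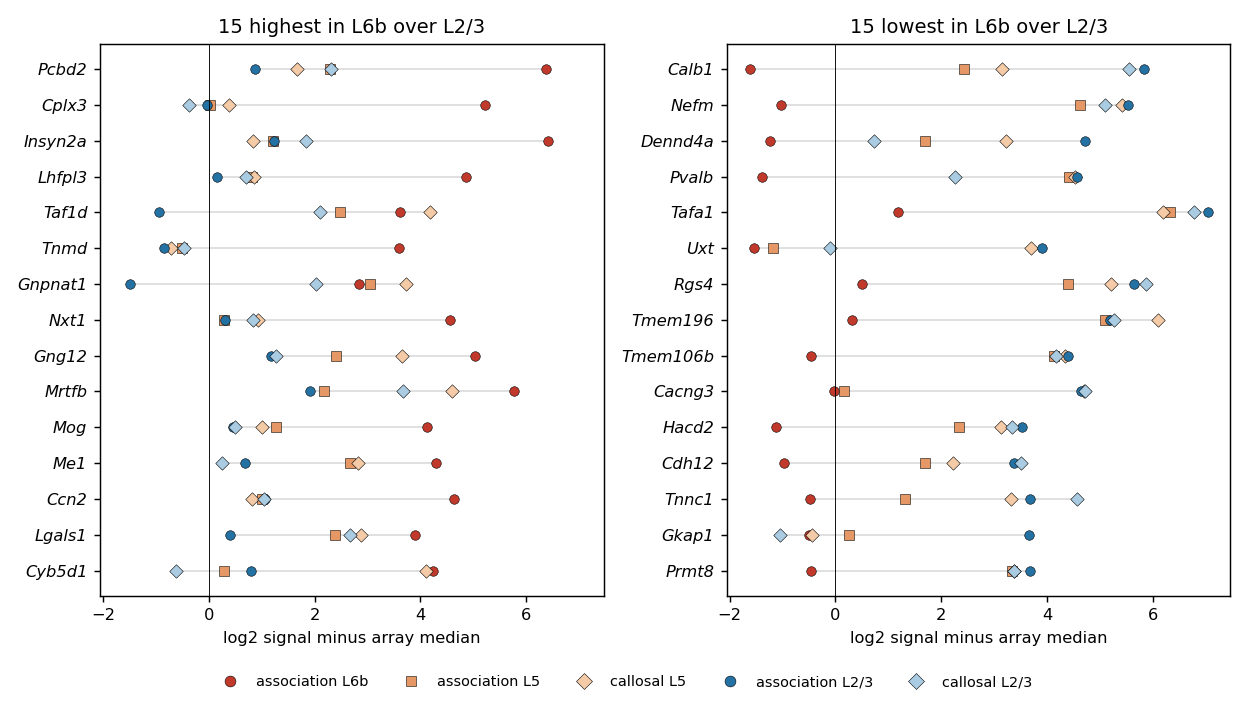
Log2 signal minus the array median (horizontal axis) in the 5 arrays for the 15 named genes with the highest and the 15 with the lowest difference of L6b minus L2/3, ordered by that difference. Red circles are association L6b and dark blue circles are association L2/3, with the other 3 arrays in paler colors, and *Tafa1* and *Rgs4* show L6b far below the 4 other arrays, whereas *Gkap1* shows association L2/3 apart.

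The sequence around the start of transcription is shown for 4 of these genes, 2 higher and 2 lower in L6b, in which L6b stood apart from all 4 other arrays and the reference lists a single start. The sequences are from RefSeq on GRCm38.p6, run 5′ to 3′ on the strand of the gene, and span 250 bases before the start to 50 after it. *Cplx3* is at chr9:57606232-57606531 on the minus strand, *Insyn2a* at chr7:134938381-134938680 on the minus strand, *Rgs4* at chr1:169747593-169747892 on the minus strand, and *Tafa1* at chr6:96112904-96113203 on the plus strand. Capitals mark matches to any of 7 short motifs searched on both strands.
Cplx3: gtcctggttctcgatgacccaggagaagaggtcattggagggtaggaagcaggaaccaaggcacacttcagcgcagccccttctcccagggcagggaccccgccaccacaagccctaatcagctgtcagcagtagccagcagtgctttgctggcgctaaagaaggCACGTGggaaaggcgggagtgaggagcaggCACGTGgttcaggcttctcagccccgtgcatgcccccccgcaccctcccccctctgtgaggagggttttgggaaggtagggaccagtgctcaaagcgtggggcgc
Insyn2a: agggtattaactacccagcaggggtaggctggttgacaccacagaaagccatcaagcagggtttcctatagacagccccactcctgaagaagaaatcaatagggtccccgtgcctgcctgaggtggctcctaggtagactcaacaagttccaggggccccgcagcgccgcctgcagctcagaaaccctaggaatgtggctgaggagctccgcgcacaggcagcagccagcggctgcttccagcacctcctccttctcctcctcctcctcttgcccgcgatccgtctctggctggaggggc
Rgs4: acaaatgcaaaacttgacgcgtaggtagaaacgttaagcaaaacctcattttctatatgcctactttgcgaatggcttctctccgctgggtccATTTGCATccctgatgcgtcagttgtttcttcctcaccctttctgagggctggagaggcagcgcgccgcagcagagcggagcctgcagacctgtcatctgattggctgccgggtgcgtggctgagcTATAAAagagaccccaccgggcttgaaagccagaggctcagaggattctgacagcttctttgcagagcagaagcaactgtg
Tafa1: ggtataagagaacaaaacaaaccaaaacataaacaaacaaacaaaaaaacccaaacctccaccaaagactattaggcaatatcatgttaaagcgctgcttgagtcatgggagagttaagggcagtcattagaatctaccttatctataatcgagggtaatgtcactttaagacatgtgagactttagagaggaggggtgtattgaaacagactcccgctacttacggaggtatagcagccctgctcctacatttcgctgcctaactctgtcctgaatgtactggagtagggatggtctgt

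*Cplx3* held the E-box CACGTG at 85 and 55 bases before the start. *Rgs4* held the octamer ATGCAAAT of POU factors on the opposite strand, 157 bases before the start, and the TATA box TATAAA 31 bases before it. *Insyn2a* and *Tafa1* held no match to the E-box, the octamer, the TATA box, the GC box GGGCGG, the cAMP response element TGACGTCA, the nuclear factor I motif TTGGCA, or the NR4A site AAAGGTCA. Across the 9447 kept genes with a promoter in the reference, the E-box was in 9.79%, the octamer in 1.28%, the TATA box in 7.52%, the GC box in 61.4%, the cAMP response element in 3.14%, the nuclear factor I motif in 11.8%, and the NR4A site in 0.783%. In the promoters of genes at least 2-fold higher in L6b these shares were 9.74%, 1.87%, 5.62%, 62.2%, 3%, 10.1%, and 0.375% of 267 genes. In those of genes at least 2-fold lower they were 9.64%, 0.649%, 6.67%, 65.1%, 2.97%, 10.8%, and 0.741% of 1079 genes. Most shares lay near those of all genes, and a match describes letters in this window and not a bound site. The octamer shares and the NR4A share of higher genes departed more from those of all genes. The octamer shares rest on 5 and 7 genes, and the NR4A shares on 1 and 8.

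Genes of excitatory transmission were lower in L6b in part of each family. Of 12 kept subunits and auxiliary genes of AMPA, NMDA, and kainate receptors, 4 were at least 2-fold lower, against 11.1% of all genes, and 0 higher. Their median was -0.44, and it was -0.06 with callosal L2/3 as the L2/3 side. *Grin2a*, an NMDA receptor subunit gene, had 0.96 in association L6b, 4.45 in association L2/3, 2.35 in association L5, 4.56 in callosal L2/3, and 3.10 in callosal L5. The order ran from L2/3 through L5 to L6b, and L2/3 was 11.2-fold above L6b. *Grin2b* had a difference of -2.0, and the AMPA receptor genes *Gria4* and *Gria3* had -2.93 and -1.02. *Neto1*, which encodes an auxiliary subunit of kainate receptors, had the highest difference of the list, 0.98. Of 6 metabotropic receptors kept, 2 were lower, *Grm5* (-2.68) and *Grm7* (-1.01), and the median of -0.64 became -0.21 with callosal L2/3. Postsynaptic scaffold genes had 4 of 20 lower and a median of -0.29 (-0.12 with callosal L2/3), led by *Sipa1l1* (-2.79) and *Cnksr2* (-2.58), and *Dlg4*, the gene of PSD-95, had -0.98.

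The release machinery differed less than *Cplx3* alone would show. Of 28 kept genes, 1 was higher and 6 were lower, against 2.97% and 11.1% of all genes, and the median was -0.18. *Cplx1* and *Cplx2*, the complexins of most cortical neurons, had 3.74 and 2.89 in L6b and 4.49 and 3.40 in L2/3, and *Cplx4* was below the median in both arrays. Thus among 4 complexins *Cplx3* alone was at least 2-fold higher. *Rab3b*, a vesicle GTPase gene, was higher by 1.46, and *Syt4*, *Unc13a*, and *Stx1a*, genes of calcium sensing, priming, and fusion, had -2.18, -1.48, and -1.47. The 3 probe sets of *Unc13a* ranged from -2.43 to 0.57, so its sign depended on the probe set.

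At inhibitory synapses, *Gabra5* and *Insyn2a* were at least 2-fold higher in L6b, whereas the other members of their lists were lower or within 2-fold. Of 8 kept GABA-A receptor subunits, 4 were at least 2-fold lower and 1 higher, against 11.1% and 2.97% of all genes. The median was -0.94, and -0.25 with the callosal L2/3 array. *Gabra5*, an SP gene whose subunit forms extrasynaptic receptors, had 2.97 in L6b, 1.62 in association L2/3, 1.29 in association L5, 1.37 in callosal L2/3, and 2.25 in callosal L5. *Gabrb1*, *Gabra4*, *Gabra2*, and *Gabrg3* had differences of -2.91, -2.75, -2.54, and -1.64. The alpha subunits thus lay on both sides, and the callosal L2/3 array had 3.87 for *Gabra4* but 0.92 for *Gabra2*, against 4.06 and 3.02 in association L2/3. Among 10 scaffold genes of these synapses, *Insyn2a* was the 1 higher, and *Gphn*, the gephyrin gene, and *Nlgn2*, the neuroligin gene of inhibitory synapses, had -1.62 and -1.31.

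Receptors for modulators were mostly within 2-fold. *Chrna4*, which encodes the alpha4 subunit of nicotinic receptors, had 4.05 in association L6b, 1.29 in association L2/3, 1.81 in association L5, 1.47 in callosal L2/3, and 1.52 in callosal L5. It was the 1 of 9 kept acetylcholine receptor genes at least 2-fold higher, by 6.77-fold. In that list 11.1% were higher and 22.2% lower, against 2.97% and 11.1% of all genes. The 2 lower were the muscarinic genes *Chrm3* and *Chrm2*, with -2.47 and -2.37. Yet their callosal L2/3 signals of 1.24 and -0.23 were close to the L6b signals of 1.23 and -0.20. Of 33 kept monoamine and neuropeptide receptor genes, 1 was higher, *Sstr4* (1.18), and 2 were lower, *Npy1r* (-1.69) and *Htr2a* (-1.13), which is near the share among all genes. *Htr1f*, a serotonin receptor gene, had 0.99.

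Potassium channel genes other than the Kv1 family had many lower members. Of 27 kept, 11 were at least 2-fold lower in L6b, against 11.1% of all genes, and 1 was higher, with a median of -0.54. *Kcnq5*, a gene of the M current, had a signal of -0.40 in L6b and 3.37 in L2/3, with 2.44 in callosal L2/3, 1.18 in association L5, and 1.63 in callosal L5. *Kcnd2*, which encodes the A-type channel Kv4.2, had 0.04 and 3.01, and its partner gene *Dpp6* had 0.00 and 2.17. The other of the 2 probe sets of *Dpp6* had a difference of -0.09. *Kcnh7* had a difference of -1.94. *Kcnip3*, a calcium-sensing partner of Kv4 channels, was the 1 higher, by 1.56. Within the Kv1 family and its beta subunits the median was 0.07 and 10 of 11 genes were kept. *Kcnab1* was the 1 higher, *Kcna2* the 1 lower (-1.16), and the other beta subunit genes *Kcnab2* and *Kcnab3* had -0.88 and -0.08. The other of the 2 probe sets of *Kcna2* had 0.17, so its sign depended on the probe set. Callosal L2/3 had 1.42 for *Kcna2*, against 2.00 in association L2/3 and 0.84 in L6b. The pore-forming partners of *Kcnab1*, *Kcna1* and *Kcna4*, had -0.20 and 0.27. With the callosal L2/3 array in place of the association one the median of the other potassium channel genes was -0.09.

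Sodium, calcium, and HCN channel genes had 7 of 24 lower, against 11.1% of all genes, and 0 higher. The median was -0.46, and -0.06 with the callosal L2/3 array in place of the association one. *Cacna2d1*, an auxiliary calcium channel subunit gene, had 1.46 in L6b and 4.98 in L2/3, and *Scn1a*, a sodium channel gene, had 1.78 and 4.31. Callosal L2/3 had 4.32 and 4.18 for these genes, near association L2/3. *Scn3b* had a difference of -1.63, but callosal L2/3 lay at 1.18, below the L6b signal of 1.83.

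Calcium signaling genes inside the cell included *Camk2a* among the lower ones. *Camk2a*, the alpha subunit of the kinase abundant in excitatory synapses, had 2.41 in L6b, 5.75 in association L2/3, 4.41 in association L5, 5.41 in callosal L2/3, and 4.91 in callosal L5. All 5 arrays were above the median, with L6b lowest, and L2/3 was 10.1-fold above L6b. Of 22 kept CaM kinase and calmodulin-binding genes, 8 were lower and 2 higher, against 11.1% and 2.97% of all genes. Their median was -0.55, and it was -0.26 with callosal L2/3. *Nrgn*, which encodes neurogranin, and *Itpka* both had -1.87, and *Camk2n1*, the gene of an inhibitor of CaMKII, had -1.32. *Pcp4* was higher by 2.30. *Camta1* had 1.43 by its highest probe set, but its 4 probe sets ranged from -2.09 to 1.43 and it was not higher than callosal L2/3. EF-hand calcium buffers and sensors had 4 of 19 higher and 4 lower, against the same shares, and their median changed sign with the scaling. *Efhd2* had 4.62 in L6b and 2.19 in L2/3, and *Caln1* had 0.50 and -1.03.

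Genes of second messengers and receptor signaling followed. Of 25 kept cyclic nucleotide enzyme genes, 7 were lower and 1 higher, against 11.1% and 2.97% of all genes, and the median of -0.26 became -0.12 with callosal L2/3. *Gucy1a1* and *Gucy1b1*, which encode the subunits of the nitric oxide receptor soluble guanylate cyclase, had -3.19 and -2.85, and the callosal L2/3 signals of 2.01 and 3.13 were also above the L6b signals of 0.12 and -0.11. RGS genes had 4 of 15 lower. *Rgs8* had 0.61 in L6b and 4.03 in association L2/3 but 0.91 in callosal L2/3, whereas *Rgs4* was high in both L2/3 arrays.

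Among adhesion and guidance genes, several lists were near the 11.1% of lower and the 2.97% of higher genes overall. That held for 28 Eph, ephrin, Slit, Robo, and netrin genes, of which 3 were lower and 0 higher, led by *Epha4* (-3.73), a receptor of repulsive guidance with 0.61 in L6b and 4.34 in L2/3. Cadherins and protocadherins had 6 of 22 lower, led by *Cdh12* (-4.35). Contactins, neurexins, neuroligins, and LRRTMs had 8 of 26 lower and 1 higher, with a median of -0.32 that became -0.06 with callosal L2/3. *Lrrc4c* and *Lrrtm4*, genes of excitatory synapse organizers, had -2.76 and -2.56, and *Cntn6*, a contactin gene, was higher with 2.53 in L6b against 1.12. Semaphorins, plexins, and neuropilins had 3 of 24 lower, led by *Plxna4* (-2.54), a share close to that of all genes, and a median of 0.06. Motor genes had 5 of 21 lower, led by the kinesin gene *Kif5a* (-2.86), with a median of -0.31. Filament and microtubule genes had 2 of 21 lower, *Nefm* and *Nefl* (-1.73), which is no more than the 11.1% of all genes.

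Neuropeptide genes lay on both sides. Of 24 kept, 2 were higher and 8 lower, against 2.97% and 11.1% of all genes, with a median of -0.16, which reached 0 under another scaling. *Crh*, the gene of corticotropin-releasing hormone, had 3.32 in association L6b, 0.86 in association L2/3, 0.02 in association L5, 0.67 in callosal L2/3, and -0.09 in callosal L5. L6b was the highest array for *Crh* as for *Trh*. *Penk*, the proenkephalin gene, had 0.08 in L6b and 3.95 in association L2/3, with 1.92 in callosal L2/3. *Sst*, *Npy*, and *Tac1*, peptide genes of interneurons, had -1.78, -1.67, and -1.95.

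Metabolic and housekeeping lists held some single large differences. Their shares stand against 2.97% higher and 11.1% lower among all genes. *Slc7a5*, which encodes the large neutral amino acid transporter LAT1, had 4.72 in association L6b, 1.45 in association L2/3, 1.39 in association L5, 1.29 in callosal L2/3, and 0.79 in callosal L5. It was 9.65-fold higher, and no other of 11 kept amino acid transporter genes was 2-fold apart. *Sqle* and *Idi1*, enzymes of cholesterol synthesis, were the 2 of 15 (13.3%) that were higher, by 2.43 and 2.03. That share was above that of all genes, while the median of the list was -0.07. Of 13 glycolysis and lactate genes, 3 (23.1%) were lower, among them *Aldoc* (-2.45) and *Ldhb* (-1.55), a share above that of all genes. Below 0 lay 12 of the 13, with a median of -0.29, or -0.13 with callosal L2/3. Of 57 ribosomal protein genes, 2 were higher (3.51%) and 1 lower (1.75%), with a median of 0.02. *Ndufs8* (2.33) was the 1 of 74 oxidative phosphorylation genes that was higher, and 1 was lower (1.35% each). Proteasome subunit genes had 3 of 37 higher and 3 lower (8.11% each), above the share of all genes for higher and below it for lower. Most members of these large housekeeping lists were thus within 2-fold.

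The remaining lists had few members apart, mostly near the 11.1% lower and 2.97% higher among all genes. Of 26 kept chaperone genes, 4 were lower and 1 was higher, *Hspa13* (1.82), and of 19 immediate early genes 2 were lower, *Egr2* (-2.25) and *Dusp6* (-1.70). Among 15 heparan sulfate enzymes *Hs3st4* was the 1 higher, and *Hs6st2* (-1.09) and *Ndst3* (-1.03) were lower. *Sort1*, the sortilin gene (-1.67), was the 1 lower of 8 neurotrophin and receptor genes. *Tafa2* (-1.70) was lower beside *Tafa1* among 5 TAFA genes. Of 13 callosal projection genes *Nectin3* and *Lmo4* were lower, of 6 L4 genes *Kcnh5* (-1.01) was lower, and of 8 matrix and perineuronal net genes none was 2-fold apart.

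**Figure D4:**
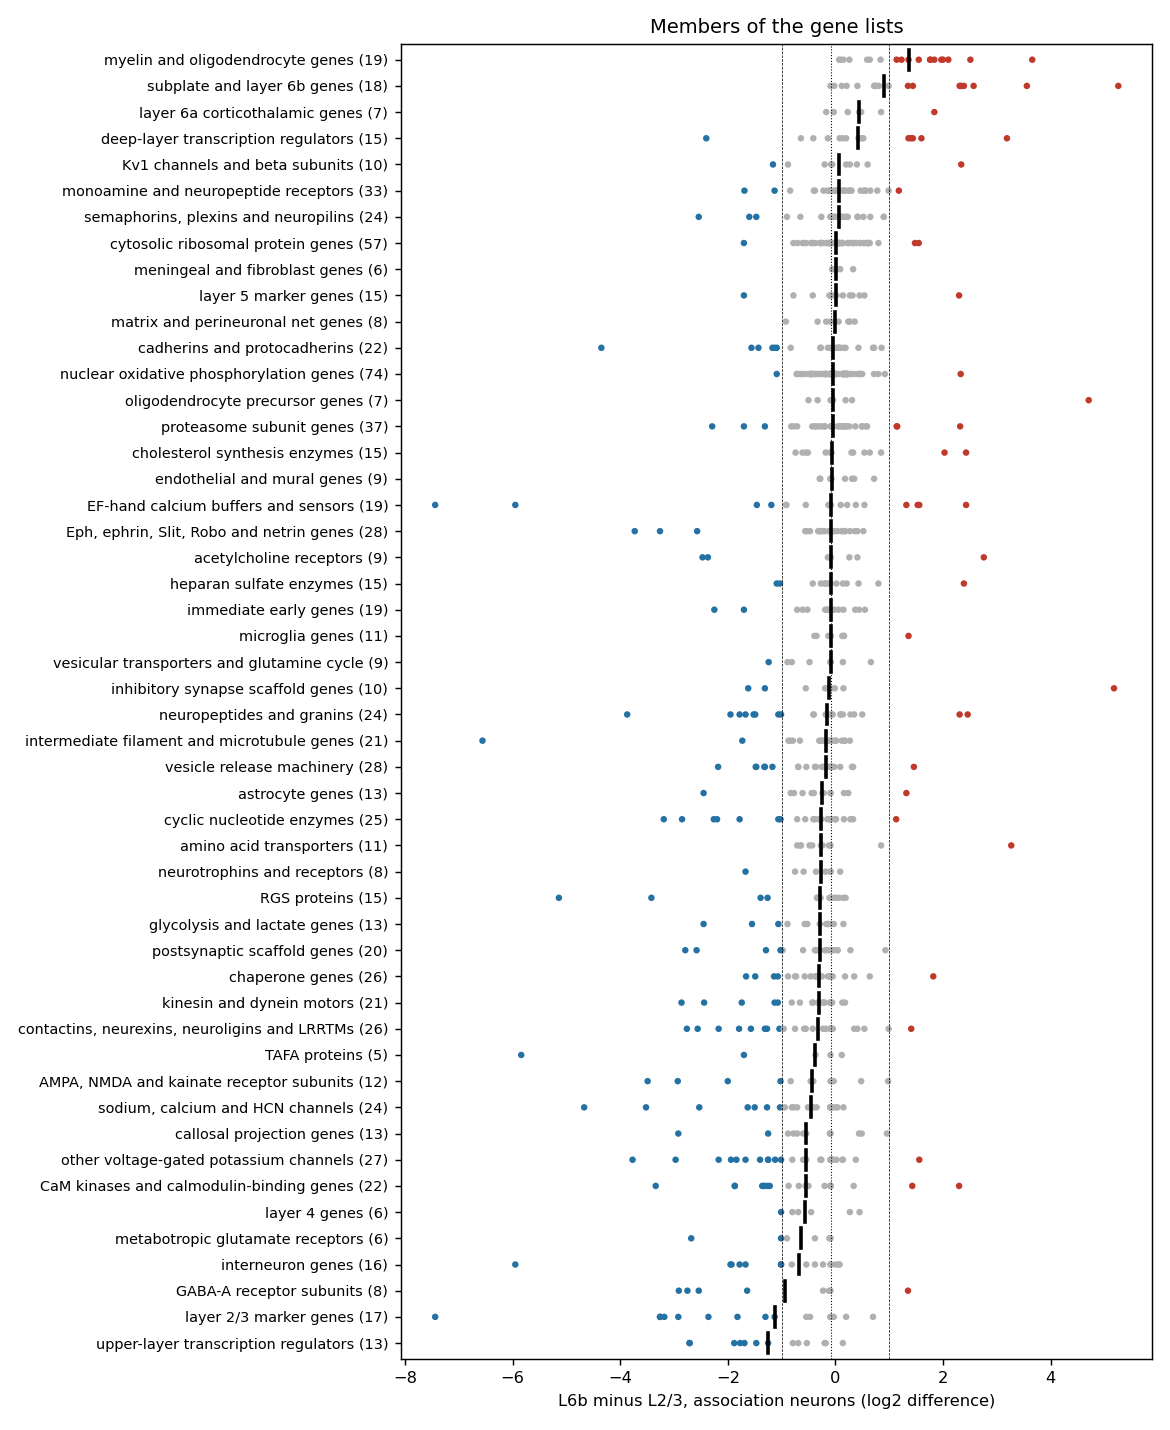
Difference of L6b minus L2/3 on the log2 scale (horizontal axis) for each kept member of the gene lists with 5 or more kept members (rows, with the number kept), ordered by the median of the list (black bar). Red points are genes at least 2-fold higher and blue points genes at least 2-fold lower in L6b, dashed lines mark 2-fold, and the dotted line marks the median of all genes, -0.09.

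Genes of other cell types also differed between the arrays. Myelin and oligodendrocyte genes had the highest median of the lists, 1.36, with 12 of 19 kept members at least 2-fold higher in L6b, against 2.97% of all genes, and 0 lower. The 12 include *Aspa*, *Mag*, and *Opalin*, which had -1.52, -0.37, and -0.54 in association L2/3 and were kept only through L6b. *Mog*, which encodes a protein of the outer myelin surface, had 4.12 in association L6b, 0.46 in association L2/3, 1.28 in association L5, 0.50 in callosal L2/3, and 1.0 in callosal L5. *Ugt8a* and *Mobp* had differences of 2.51 and 2.10, and *Mbp*, the myelin basic protein gene, had 1.55 from 1.39 to 2.94. The 7 kept members under 2-fold included *Sox10* (0.15) and *Olig1* (0.26), which encode factors of the oligodendrocyte lineage, and *Olig2* was below the median in both arrays. The summed signal of the 19 genes on the log2 scale was 6.37 in association L6b, 4.81 in association L2/3, 6.12 in association L5, 4.86 in callosal L2/3, and 5.57 in callosal L5, so the deep arrays lay above the L2/3 arrays. Of 7 kept oligodendrocyte precursor genes, *Lhfpl3* was the 1 that was 2-fold apart.

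Interneuron genes differed in the opposite direction, with 7 of 16 kept members at least 2-fold lower in L6b, against 11.1% of all genes, and 0 higher. The median was -0.68, and -0.21 with callosal L2/3 as the L2/3 side. *Pvalb*, which encodes parvalbumin, had -1.38 in association L6b, 4.57 in association L2/3, 4.41 in association L5, 2.26 in callosal L2/3, and 4.52 in callosal L5. *Gad2* and *Gad1*, which encode the enzymes of GABA synthesis, had -1.93 and -1.01, and *Slc32a1*, the GABA vesicle transporter gene, had 1.93 in L6b and 2.74 in L2/3. *Gad2* was at 2.18 in association L2/3 but at 0.54 in callosal L2/3 and 0.45 in association L5, near 0.25 in L6b. The summed signal was 4.88 in association L6b and from 5.99 to 6.47 in the other 4 arrays. Astrocyte sums were 6.77 and 7.11 in L6b and L2/3, where *Aldoc* was lower and *S100b* higher (1.32), and *Gfap* and *Aqp4* were at -0.40 and -0.30 in L6b. Microglia genes had 1 of 11 higher, *C1qc* (1.36). None of 9 endothelial and none of 6 meningeal genes were 2-fold apart. The part of other cells in the differences of neuronal genes was not tested.

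How far the differences depend on the L2/3 array can be read from the callosal L2/3 array, whose cells lie in the same layer but project to the other hemisphere. Of the 1325 genes lower in L6b, association L2/3 was at least 2-fold above callosal L2/3 in 446 (33.7%), against 5.34% of all genes kept. Of the 354 genes higher in L6b, association L2/3 was at least 2-fold below callosal L2/3 in 54 (15.3%), against 2.99%. Both groups of genes were chosen with the association L2/3 value, so a shift of this kind comes with the choice, and the shares are given as a description. With the callosal array in place of the association array, L6b was higher by 2-fold or more in 409 genes and lower in 987. The callosal animals also differed in sex-linked genes, with *Xist* at -0.88 in callosal L2/3 and at 2.55 and 2.31 in association L2/3 and L6b, and *Eif2s3y* at 2.90, -2.61, and -2.46. The 2 association arrays were alike in both genes.

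Callosal neurons of L5 and L2/3 form a pair that shares no array with the comparison of L6b and L2/3. Of all genes kept, 460 (3.86%) were at least 2-fold higher in callosal L5 and 496 (4.16%) were lower. Among the 354 genes higher in L6b, 59 (16.7%) were higher in callosal L5 and 38 (10.7%) were lower. Among the 1325 genes lower in L6b, 106 (8%) were higher and 155 (11.7%) were lower. Each of these 4 shares was above that over all genes, and whether signal level or other features of such genes account for it was not tested. Across the 11916 genes, which are not independent and share probe sets and processing, the 2 differences had a Pearson correlation of 0.083 and a Spearman correlation of 0.083. Among genes at least 4-fold higher in L6b, *Pcp4* (2.81), *Me1* (2.57), *Gng12* (2.39), and *Mobp* (1.69) were also higher in callosal L5. Among genes at least 4-fold lower, *Calb1* (-2.40), *Rasgrf2* (-1.99), *Lamp5* (-1.95), *Unc5d* (-1.52), *Grin2a* (-1.46), *Nectin3* (-1.44), and *Pou3f2* (-1.26) were also lower there. *Cplx3*, *Tle4*, and *Ccn2* were less than 2-fold apart in the callosal pair. Opposite signs were found for *Trps1*, a zinc-finger factor gene with 2.61 in the association pair and -3.99 in the callosal pair, and for *Pvalb* (-5.95 and 2.26).

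**Figure D5:**
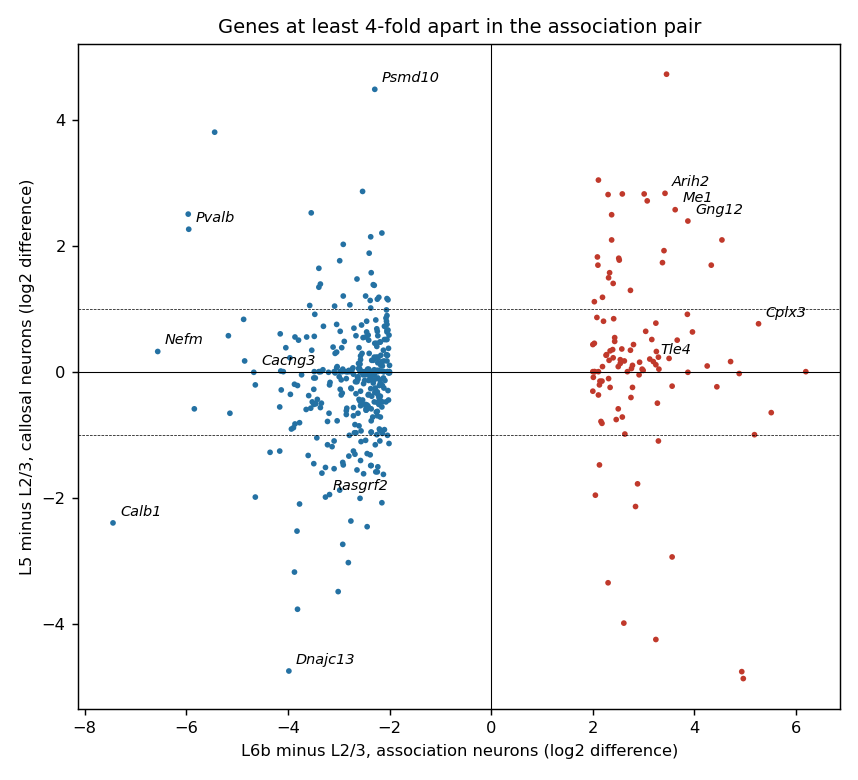
Difference of L5 minus L2/3 in callosal neurons (vertical axis) against L6b minus L2/3 in association neurons (horizontal axis), both on the log2 scale, for the 108 genes at least 4-fold higher (red) and the 338 at least 4-fold lower (blue) in L6b, with dashed lines at a 2-fold callosal difference. Of the red points 25 lie above the upper and 12 below the lower dashed line, and of the blue points 29 and 52 do.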

How the data were processed

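RNA of association neurons of S1 was measured on Affymetrix Mouse Gene 1.0 ST arrays, with 1 array each for L6b and L2/3 and 3 further arrays for other neurons. The authors deposited 1 table of log2 signals for 35556 probe sets, and the log2 scale was read from the values, which range from 1.11 to 14.2. The submitters' processing notes name Affymetrix Expression Console. How probes were summarised to 1 value, and the version used, were not given in the sources used here. Log transformation, global normalization, and centering are the steps the study's methods name. The deposited values are not centered per gene.

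The platform annotation gave 1 symbol for 21789 probe sets and several for 1621, and 12146 are unnamed here. Identifiers of 21698 probe sets matched a current gene table, and 0 symbols were updated. Each array's median over all probe sets was subtracted, the probe set with the highest mean over the 5 arrays stood for its gene, and genes at or above the array median in L6b or L2/3 were kept. A gene was counted where the difference reached 2-fold or 4-fold, which is a rule of size. With 1 array per group no test was run, and the number of arrays limits the precision of each value.

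Counts and medians were taken for 52 gene lists with 1091 genes, of which 1028 had a probe set and 868 were kept. The lists, the comparison, and the genes named were chosen with earlier results of these data known. The genes named are the 3 markers, the 15 highest and lowest, the 10 highest and lowest among genes above the median in both arrays, up to 6 members of each list, all members of the SP, L2/3, complexin, and Kv1 lists, and defining markers of other cell types, and not each is printed. Predicted genes, pseudogenes, small RNAs, histones, and chemosensory receptor genes were left out of the ranked groups. Genes named for the callosal pair, and other members named for their role, were picked with their values known. The blood list had 0 genes kept.

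Alternatives were values as deposited, scaling to the 75th percentile, quantile normalization, a lowess curve, other filters, the mean of all probe sets, and another L2/3 side. Promoters were read from a RefSeq table. Python 3.11.15, pandas 2.3.3, numpy 2.4.6, statsmodels 0.14.6, and matplotlib 3.10.9 were used, and the steps were tested on simulated data.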

Additional observations from a re-analysis of the deposited data

How the results depend on the processing

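No paired analysis was possible because each group has 1 array, and for the same reason no replicate could be left out. Under 9 other settings of scaling, filter, probe set, and L2/3 side the lower genes outnumbered the higher ones, with 286 to 475 higher and 1007 to 1349 lower at 2-fold. Quantile normalization moved the median of all genes by 0.126 and gave 31% higher among the genes 2-fold apart. The 338 genes at least 4-fold lower became 221 when both arrays had to reach the median, because genes dim in L6b were then not kept. The mean of all probe sets turned *Camta1* to -0.72, and the mean of both L2/3 arrays turned *Psmd10* to 0.15. The use of callosal L2/3 alone, added after the data were seen, turned 9 named genes that were at least 2-fold apart: *Camta1* -0.16, *Psmd10* 2.59, *Gkap1* 0.54, *Etv1* 0.04, *Chrm2* 0.03, *Scn3b* 0.65, *S100b* -0.15, *Hs6st2* 0.21, and *Rpl22* -0.23. Apart from the spread between probe sets of *Camta1* and the level of callosal L2/3 in the others, the cause was not tested. These counts cover named genes at least 2-fold apart, none of which scalings or filters turned. Genes nearer to 0, such as *Ngfr* and *Otof* at -0.09, change sign when the scaling moves the median by 0.16. A signal below the array median is dim, so the size of a difference that rests on one is uncertain.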

Other observations

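Several genes outside the lists were far apart between L6b and L2/3. *Tnmd* reached 3.59 in L6b but stayed between -0.85 and -0.47 elsewhere, and *Nxt1* reached 4.56 in L6b and 0.28 to 0.93 elsewhere. Both were read by 1 probe set. *Prmt8*, which encodes a membrane-bound arginine methyltransferase of the brain, had -0.47 in L6b and 3.34 to 3.67 elsewhere. *Tmem106b*, a lysosomal membrane protein gene, had -0.46 in L6b and 4.13 to 4.39 elsewhere. *Rtn4rl1*, a Nogo receptor family gene, had 0.64 in L6b and 3.50 to 4.59 elsewhere, and *Nrep* had 1.61 and 4.59 to 5.42. In these 4 genes L6b alone was low.

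Signals of further genes varied among the L2/3 and L5 arrays. *Pqbp1*, which encodes a splicing-related protein, had a level of 5.4 in the association L2/3 array, against 2.56 in the callosal one and 1.36 in L6b. *Dnajc13*, an endosomal cochaperone gene, was high in both L2/3 arrays with 5.88 and 5.12 and low in L6b and callosal L5 with 1.90 and 0.37, and its probe sets ranged from -6.29 to 0.38.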
